A study of Homo sapiens with 3 samples.

Results

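The miRNAs examined here are miR-122 and miR-885, which are used as markers of the hepatocyte, in 3 strains of the human hepatocellular carcinoma (HCC) cell line HCCLM3. The members are every entry called hsa-miR-122 or hsa-miR-885 with any arm suffix, which gave 4 of the 1921 miRNA names listed in each table (2 arms of each hairpin). These miRNAs were chosen with earlier results of these data known. The strains were grown in DMEM and comprised the parent line, labelled as having low metastasis, subclone1, labelled as more metastatic with a preference for the lung, and subclone2, labelled as metastasizing both to the lung and to celiac lymph nodes. The study's text instead calls its parental line, the fluorescent derivative HCCLM3-R, highly metastatic. It describes its subclones as each grown from a single cell out of lung or lymph node metastases of that line in nude mice, and no label ties subclone1 or subclone2 to one of the named clones. Each strain had 1 library, so the values below compare 3 libraries and have no replicate check. No normal liver or primary hepatocyte is among the samples, so a loss relative to liver was not measured.

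miR-122 is the most characteristic miRNA of the hepatocyte. In adult liver it dominates the miRNA pool. It is transcribed under liver-enriched transcription factors such as HNF4A, represses targets such as the amino acid transporter SLC7A1 and cyclin G1, and is bound by the hepatitis C virus genome. A low level of miR-122 is a known feature of poorly differentiated HCC. miR-885 is a less studied miRNA whose 5p arm has been described as abundant in liver and raised in the serum of patients with liver disease.

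The mature sequences are shown because the low counts below rest on telling these miRNAs apart from others. They were copied from RefSeq (GRCh38.p14), 5′ to 3′, with the seed (bases 2 to 8, the part that pairs with targets) in capitals.
hsa-miR-122-5p: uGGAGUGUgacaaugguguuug
hsa-miR-122-3p: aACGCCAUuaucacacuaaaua
hsa-miR-885-5p: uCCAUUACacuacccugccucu
hsa-miR-885-3p: aGGCAGCGggguguaguggaua

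The hairpin of miR-122 is on chromosome 18 at 58451074 to 58451158 (plus strand). In GENCODE release 29 (GRCh38) it lies in an exon of its host transcript MIR122HG, a long non-coding RNA that spans 58446275 to 58453766. The hairpin of miR-885 is on chromosome 3 at 10394489 to 10394562 (minus strand). It lies in an intron of ATP2B2, a plasma membrane calcium pump gene, on the same strand. The hairpins are printed with both mature arms in capitals, to show which stretch gives each name.
MIR122: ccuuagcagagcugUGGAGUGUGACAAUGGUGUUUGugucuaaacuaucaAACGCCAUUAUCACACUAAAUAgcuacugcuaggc
MIR885: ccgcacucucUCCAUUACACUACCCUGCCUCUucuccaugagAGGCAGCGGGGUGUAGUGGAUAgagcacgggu

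A further miRNA gene, MIR3591, is annotated on the opposite strand of the miR-122 hairpin. Its arms are printed because they are near complements of the miR-122 arms. A run of 21 bases of hsa-miR-122-5p is complementary to hsa-miR-3591-3p, and a run of 20 bases of hsa-miR-122-3p is complementary to hsa-miR-3591-5p.
hsa-miR-3591-3p: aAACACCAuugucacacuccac
hsa-miR-3591-5p: uUUAGUGUgauaauggcguuuga

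No other name shared a seed with any of the 4 members, among the 1576 listed names for which RefSeq gave a mature sequence under the same name. The members therefore form 4 seed groups of 1. The longest run that hsa-miR-122-5p shared with another of these names was 9 bases, with hsa-miR-4504, which had 1 count over the 3 libraries. Against the 159 names with a sequence and a mean of at least 10 CPM (the count divided by the sum of its library, times 1000000), the longest shared run was 7 bases. A further comparison took the 29 names with a sequence and at least 1000 CPM, aligned without gaps and shifted by at most 1 base. The closest was hsa-miR-21-5p with 10 mismatches. Names without a sequence were not compared, whatever their level.

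The measurement was the number of reads per mature miRNA name. The total was 7902438 counts in the parent compared with 3570864 in subclone1 and 4568075 in subclone2, so 1 count stood for 0.127, 0.280 and 0.219 CPM. Detected names numbered 743, 670 and 675. Intervals are exact 95% intervals (Clopper-Pearson) and, like the limits for counts of 0 (3 counts of the total), cover counting error only.

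Only hsa-miR-122-5p, the guide arm that carries the known activity of miR-122, was detected among the 4 members. It had 53 counts in the parent, 19 counts in subclone1 and 18 counts in subclone2. These correspond to 6.71 CPM (95% interval 5.02 to 8.77), 5.32 CPM (3.20 to 8.31) and 3.94 CPM (2.34 to 6.23). The parent was highest and subclone2 lowest, and the intervals of all 3 libraries overlapped. In other terms, 1 count in 149103 came from this miRNA in the parent, 1 in 187940 in subclone1 and 1 in 253782 in subclone2. Over the 16041377 counts of all libraries together its level was 5.61 CPM (4.51 to 6.90), on 90 counts. In such bulk RNA, fewer cells with this miRNA and less of it per cell cannot be told apart.

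The other 3 members had 0 counts in every library. For hsa-miR-122-3p, hsa-miR-885-5p and hsa-miR-885-3p the limit was 0.380 CPM for the parent, 0.840 for subclone1 and 0.657 for subclone2. Over all libraries together this limit was 0.187 CPM. Expression of miR-885 was thus not detectable at this depth, and no ratio between libraries can be given for it. A count of 0 was common, since 1044 of the 1921 names (54.3%) were at 0 in every library. Both arms of the antisense miR-3591 were also at 0 in every library.

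**Figure D1:**
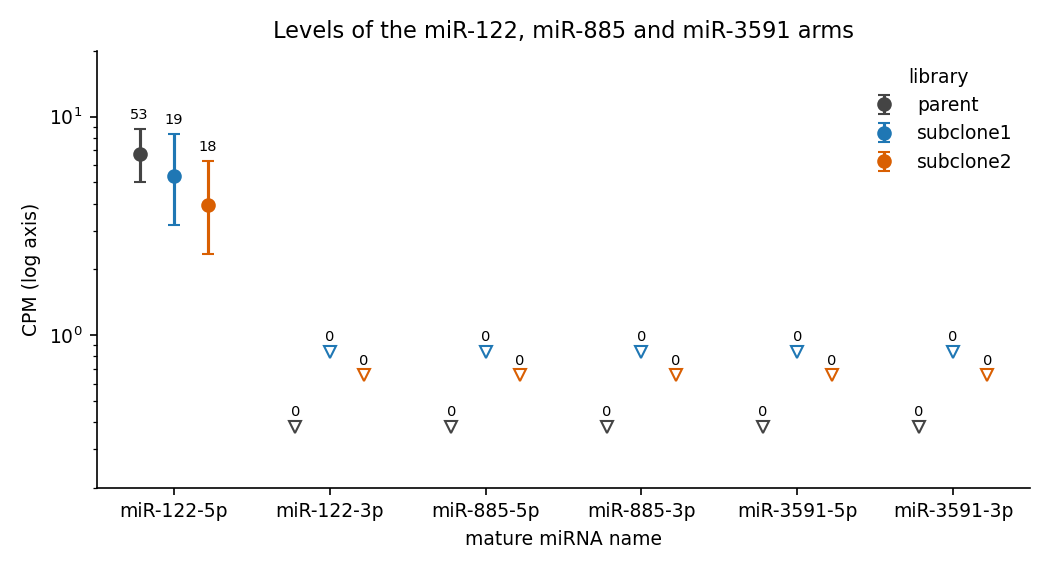
Level in CPM (log axis) of both arms of miR-122, miR-885 and miR-3591 in the 3 libraries, with the count printed above each point. Filled points carry exact 95% counting intervals and open triangles mark the limit that a count of 0 allows; miR-122-5p lies between 3.94 and 6.71 CPM with overlapping intervals and every other arm is at 0.

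The passenger arm of miR-122 was examined next to its guide. Of the 90 counts of the hairpin, 0 fell on hsa-miR-122-3p, which by the limit of 3 counts allows a share of up to 3.33%. Among the other 65 miRNAs with both arms listed and 30 to 300 counts in all, 14 (21.5%) had 0 counts on the minor arm, and the median share of the minor arm was 10.4%. An undetected passenger arm was thus seen at this count level in further miRNAs.

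The place of hsa-miR-122-5p among all detected miRNAs was then determined. In the parent 212 names had higher counts and 527 had lower counts, which put it at rank 213 of 743. In subclone1 it was at rank 233 of 670, and in subclone2 at rank 235 of 675. Its count was 5.30 times the median count of detected names in the parent, 3.17 times in subclone1 and 2.57 times in subclone2. It therefore stood above the typical detected name, of which 70.9%, 64.9% and 64.7% had fewer counts. In every library it was below 10 CPM.

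The neighbours in this order could not be told apart from it. In the parent hsa-miR-1, hsa-miR-3171 and hsa-miR-652-3p had the same 53 counts, hsa-miR-324-5p came next above with 54 and hsa-miR-29b-1-5p next below with 52. In subclone1 hsa-miR-497-5p and hsa-miR-765 had the same 19 counts, while 5 names had 20 counts and 4 names had 18. In subclone2 hsa-miR-29b-1-5p, hsa-miR-548t-5p and hsa-miR-874 had the same 18 counts, while 6 names had 19 and 3 names had 17. The interval of hsa-miR-122-5p held the levels of 35 other names in the parent compared with 81 in subclone1 and 70 in subclone2.

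**Figure D2:**
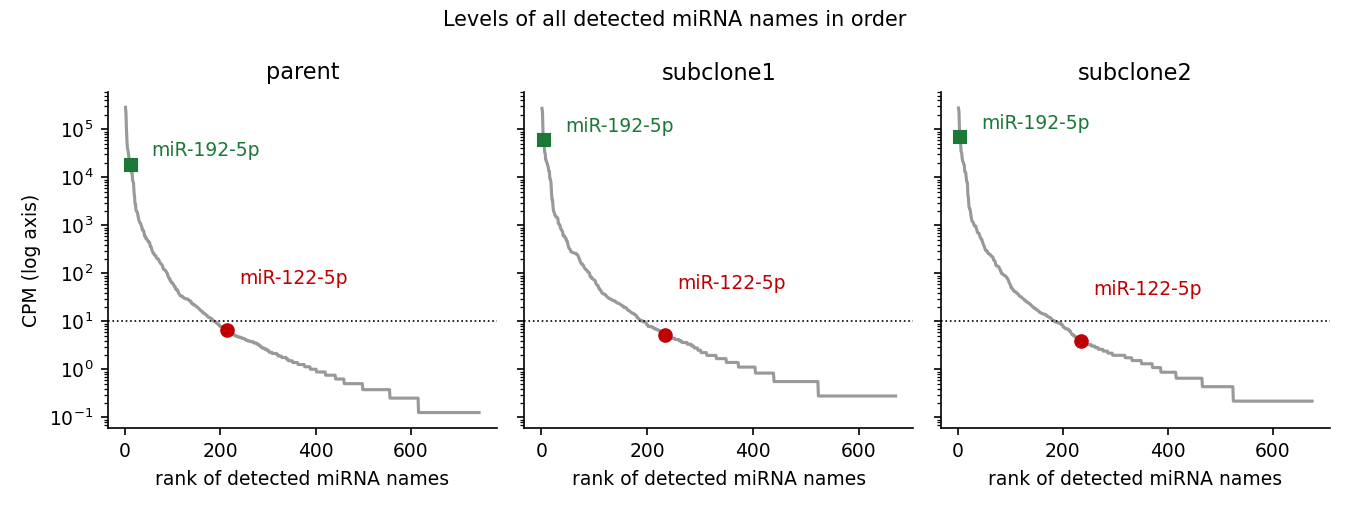
CPM (log axis) of every detected miRNA name against its rank, 1 panel per library, with hsa-miR-122-5p as a red point, hsa-miR-192-5p as a green square and 10 CPM as a dotted line. hsa-miR-122-5p lies at rank 213, 233 and 235, below the dotted line in each panel.

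To ask whether the level differed between the metastatic strains and the parent, ratios of counts scaled to the library totals were taken. A ratio was called when it reached 2-fold and its exact 95% conditional binomial interval left out 1. The log2 ratio had 0.5 counts added to each library. Such a call concerns libraries and not conditions. In subclone1 hsa-miR-122-5p was at 0.793 of the parent level (interval 0.444 to 1.36, log2 ratio -0.31). At the rate of the parent, 23.9 counts would have been reached in subclone1, where 19 were found. In subclone2 it was at 0.588 of the parent level (0.324 to 1.02, log2 ratio -0.74), with 18 counts where the rate of the parent gave 30.6. Between the subclones, subclone2 was at 0.741 of subclone1 (0.367 to 1.49, log2 ratio -0.43). None of these 3 ratios was called, and each interval held 1. The comparisons with the parent share its library.

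The depth set what could have been seen. Against 53 counts in the parent, subclone1 would have needed at most 12 or at least 38 counts for an interval that leaves out 1, which are ratios of 0.501 and 1.59. In subclone2 the bounds were 17 and 47 counts (ratios of 0.555 and 1.53), and the observed 18 counts lay 1 count inside. This nearness belongs to scaling by library totals, since with TMM scaling the upper interval end in subclone2 was 1.15. A call, which also needs 2-fold, would have taken at most 11 or at least 48 counts in subclone1. In subclone2 it would have taken at most 14 or at least 62. A decrease to 0.444 of the parent in subclone1, or to 0.324 in subclone2, and an increase to 1.36 or 1.02 times the parent, are inside the intervals. The data therefore do not show that the level was equal in the strains.

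These ratios were set beside those of every other name. With a mean of at least 10 CPM required, 13.0% of 192 names were called in subclone1 against the parent, 10.7% of 187 in subclone2 against the parent and 5.76% of 191 between the subclones. hsa-miR-122-5p, with means of 6.01, 5.32 and 4.63 CPM in these contrasts, did not reach this minimum. With no minimum, 8.12% of 825 names, 9.07% of 827 and 4.23% of 780 were called, and hsa-miR-122-5p was not among them. Of the names of at least 10 CPM, 24.5% had a lower log2 ratio than hsa-miR-122-5p in subclone1, 10.2% in subclone2 and 27.7% between the subclones. Over all names with at least 1 count, where hsa-miR-122-5p itself belongs, these shares were 37.3%, 33.6% and 37.8%. The median log2 ratio of the names of at least 10 CPM was 0.02 in subclone1, -0.15 in subclone2 and -0.17 between the subclones. TMM scaling moved the last 2 medians by 0.17 and 0.23. Relative to the median, hsa-miR-122-5p lay at -0.33 in subclone1, at -0.59 in subclone2 and at -0.27 between the subclones. A scaling shifts the log2 ratio of every name alike, so this distance is the same under any of them by construction.

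**Figure D3:**
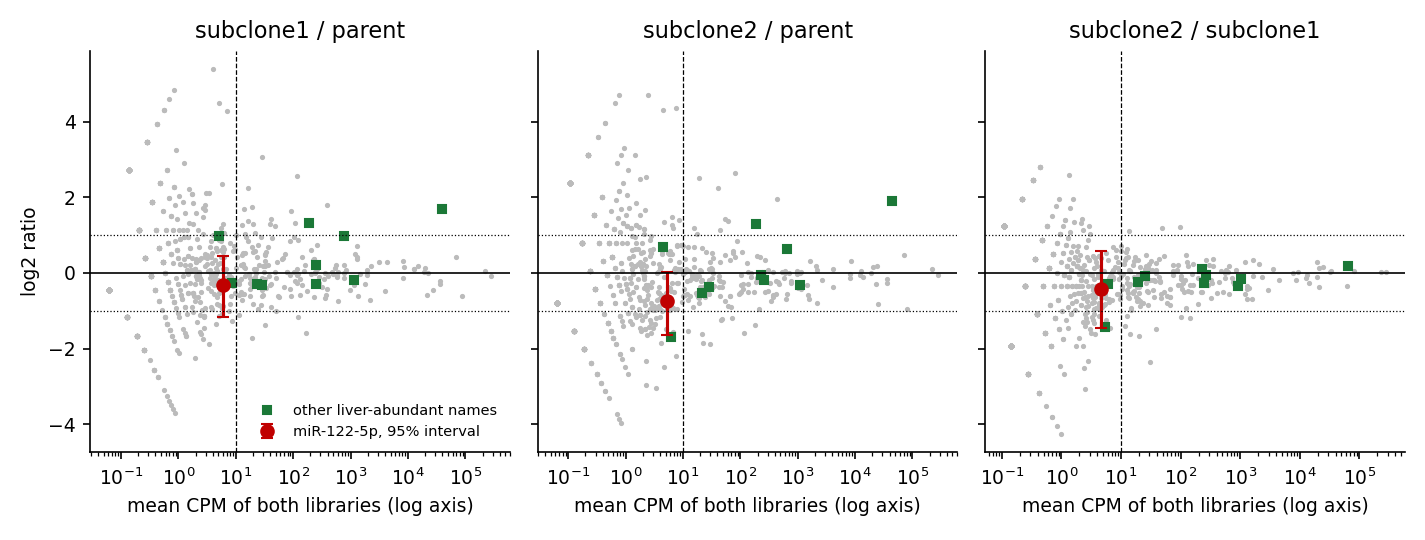
Log2 ratio against the mean CPM of both libraries (log axis) for every miRNA name with at least 1 count, in 3 contrasts; dotted lines mark 2-fold and the dashed line 10 CPM. hsa-miR-122-5p (red, exact 95% interval) lies at -0.31, -0.74 and -0.43 with an interval that crosses 0 each time, and green squares are 10 other miRNAs abundant in liver.

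The miRNAs with the most similar pattern over the 3 libraries were found by the Euclidean distance of centred log2 CPM, over 333 other names with at least 30 counts in all. They were hsa-miR-128 (distance 0.0358; 1945, 1596 and 1205 CPM), hsa-miR-17-3p (0.0412; 23.9, 19.3 and 13.8 CPM) and hsa-miR-149-3p (0.0564; 7.85, 6.16 and 4.38 CPM). hsa-miR-128 is far more abundant than hsa-miR-122-5p, since the measure compares shape and not level. With 3 libraries such likeness is common, and 124 of the 333 names (37.2%) lay within a distance of 0.5.

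The level of hsa-miR-122-5p was next set beside 10 other miRNAs known to be abundant in liver. Reads of different miRNAs carry unequal ligation bias, so these are comparisons of read counts. The most abundant was hsa-miR-192-5p, which liver shares with intestine and kidney, with levels of 18528, 60246 and 69068 CPM in the parent and the subclones. There were 2763 reads of hsa-miR-192-5p for each read of hsa-miR-122-5p in the parent compared with 11323 in subclone1 and 17528 in subclone2. hsa-miR-194-5p, which is co-transcribed with miR-192, had 108, 271 and 263 CPM. hsa-miR-101-3p, a repressor of EZH2, had 1230, 1091 and 979 CPM, and hsa-miR-30a-5p had 523, 1027 and 805 CPM. hsa-miR-22-3p had 232, 270 and 226 CPM, hsa-miR-99a-5p 272, 222 and 239 CPM, hsa-miR-455-5p 31.8, 25.5 and 24.3 CPM, and hsa-miR-455-3p 25.6, 20.7 and 17.7 CPM. Of the 10 names, hsa-miR-148a-3p and hsa-miR-139-5p came nearest to hsa-miR-122-5p. hsa-miR-148a-3p had 3.42, 6.72 and 5.47 CPM (27, 24 and 25 counts). hsa-miR-139-5p had 9.49, 7.84 and 2.85 CPM (75, 28 and 13 counts). In each library at least 9 of the 10 names had more counts than hsa-miR-122-5p. Over all 1921 listed names, 212, 232 and 234 had more counts. The list was chosen for abundance in liver and not for absence from other tissues.

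Ratios within this liver list were uneven. The list was written with earlier results of these data known, so its shares are not independent of them. With at least 10 CPM required, 8 of the 10 names were kept, of which 2 were called higher in subclone1 and 2 in subclone2, and 0 lower. Over all names kept, 9.90% (19 of 192) were called higher in subclone1 and 5.88% (11 of 187) in subclone2, and 3.12% and 4.81% were called lower. The 2 names were hsa-miR-192-5p (log2 1.70 and 1.90) and hsa-miR-194-5p (1.33 and 1.28), in both contrasts and under all 4 scalings. They are co-transcribed, so they are not 2 separate observations. In RefSeq hsa-miR-192-5p differs from hsa-miR-215-5p at 2 of 21 bases. The entry hsa-miR-215 had 172, 211 and 627 counts against 146413, 215131 and 315506 for hsa-miR-192-5p, and whether reads passed between them was not tested. The median log2 ratio of the 8 names was 0.02 in subclone1 and -0.11 in subclone2, beside 0.02 and -0.15 over all names kept. hsa-miR-139-5p, below the minimum, had a ratio of 0.826 in subclone1 (0.515 to 1.29) and of 0.300 in subclone2 (0.153 to 0.544). Its ratio of subclone2 to subclone1 was 0.363 (0.173 to 0.724). With no minimum, its decrease in subclone2 would be called against both other libraries, where 9.07% and 4.23% of all names were called. Between the subclones 0 of the 8 names were called, beside 1.57% of all names kept called higher in subclone2 and 4.19% called lower. The ratios of hsa-miR-122-5p thus did not share the increase of hsa-miR-192-5p and hsa-miR-194-5p. The lower interval ends of these 2 names (3.23 and 2.29 in subclone1, 3.70 and 2.23 in subclone2) lay above its upper ends of 1.36 and 1.02. The same held for hsa-miR-30a-5p, which was not called, at 1.96 (1.88 to 2.05) in subclone1 and 1.54 (1.47 to 1.61) in subclone2. It held for no other name of the list. Over all names kept, intervals that left out 1 were common (132 of 192 in subclone1, 130 of 187 in subclone2). How many of them cleared the ends of hsa-miR-122-5p was not counted.

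**Figure D4:**
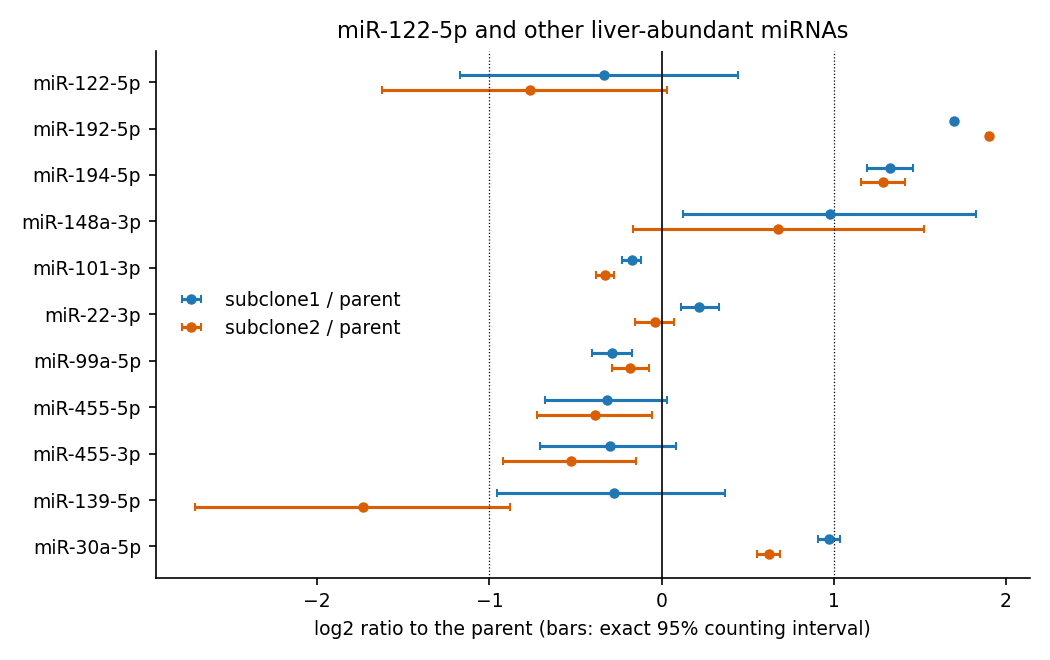
Log2 ratio to the parent, from the raw counts per library total, of hsa-miR-122-5p and 10 other miRNAs abundant in liver; points are subclone1 (blue) and subclone2 (orange), bars are exact 95% counting intervals and dotted lines mark 2-fold. The intervals of hsa-miR-122-5p cross 0, whereas hsa-miR-192-5p and hsa-miR-194-5p lie above 1 in both subclones.

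Finally, hsa-miR-122-5p was compared with miRNAs characteristic of other cell types. Their lists too were written with earlier results of these data known. Among 35 such names (blood cells, endothelium, stroma and smooth muscle, striated muscle, neurons, pluripotent cells, islet and neuroendocrine cells), 33 of the parent library, 32 of subclone1 and 33 of subclone2 had fewer counts than hsa-miR-122-5p (94.3%, 91.4% and 94.3%). Of all 1921 listed names 88.8%, 87.8% and 87.6% had fewer counts, so these shares were near those of any listed name. There were 19, 18 and 23 of the 35 names at 0. The exception far above was hsa-miR-7-5p, an islet and brain miRNA, with 448, 281 and 287 CPM, whereas hsa-miR-375 of the same list had 20, 4 and 5 counts. The muscle miRNA hsa-miR-1 had 53 counts in the parent, exactly those of hsa-miR-122-5p, and 77 and 32 counts in the subclones against 19 and 18. In CPM it stood at 6.71, 21.6 and 7.01, so that the marker of muscle had as many reads as the marker of the hepatocyte in the parent. Its interval lay above that of hsa-miR-122-5p in subclone1 (17.0 to 27.0 CPM) and overlapped with it in subclone2 (4.79 to 9.89 CPM). In RefSeq hsa-miR-1-3p differs from hsa-miR-206, which had 6, 5 and 3 counts, at 4 of 22 bases, and whether reads passed between them was not tested. The 7 muscle names together had 65, 86 and 41 counts, most of them on hsa-miR-1. Of the others, hsa-miR-499a-5p had 5, 3 and 5 counts and hsa-miR-133a had 1 in each library. hsa-miR-133b, hsa-miR-208a and hsa-miR-208b were at 0 in every library. hsa-miR-137, a neuronal miRNA, had 3.54, 5.60 and 3.50 CPM, which lay inside the interval of hsa-miR-122-5p in both subclones and below it in the parent. It led the 5 neuronal names, which had 44, 25 and 18 counts in all.

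The lists of blood cells, endothelium, stroma and smooth muscle, and pluripotent cells were lower. The 7 blood cell names together had 5, 7 and 6 counts, of which hsa-miR-223-3p had 2, 4 and 5. The 2 endothelial names had 5, 8 and 2 counts, of which hsa-miR-126-5p had 4, 7 and 0 and hsa-miR-126-3p the rest. The 4 names of stroma and smooth muscle had 8, 2 and 1 counts, of which hsa-miR-143-3p had 8, 1 and 1. The 8 names of pluripotent cells had 1, 0 and 0 counts, the former on hsa-miR-371a-5p. hsa-miR-122-5p alone had more counts in each library than any of these 4 lists summed. Of the epithelial list, led by hsa-miR-200a-3p (27.8, 44.8 and 61.1 CPM), 3 of 7 names were above hsa-miR-122-5p in each library. Of the oncofetal list, which holds the H19-derived and IGF2-derived miRNAs of fetal liver and liver tumours, both arms of miR-483 were at 0, and hsa-miR-675-5p had 5.69, 27.4 and 32.6 CPM. It was therefore close to hsa-miR-122-5p (6.71 CPM) in the parent, with overlapping intervals, and above it in both subclones.

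**Figure D5:**
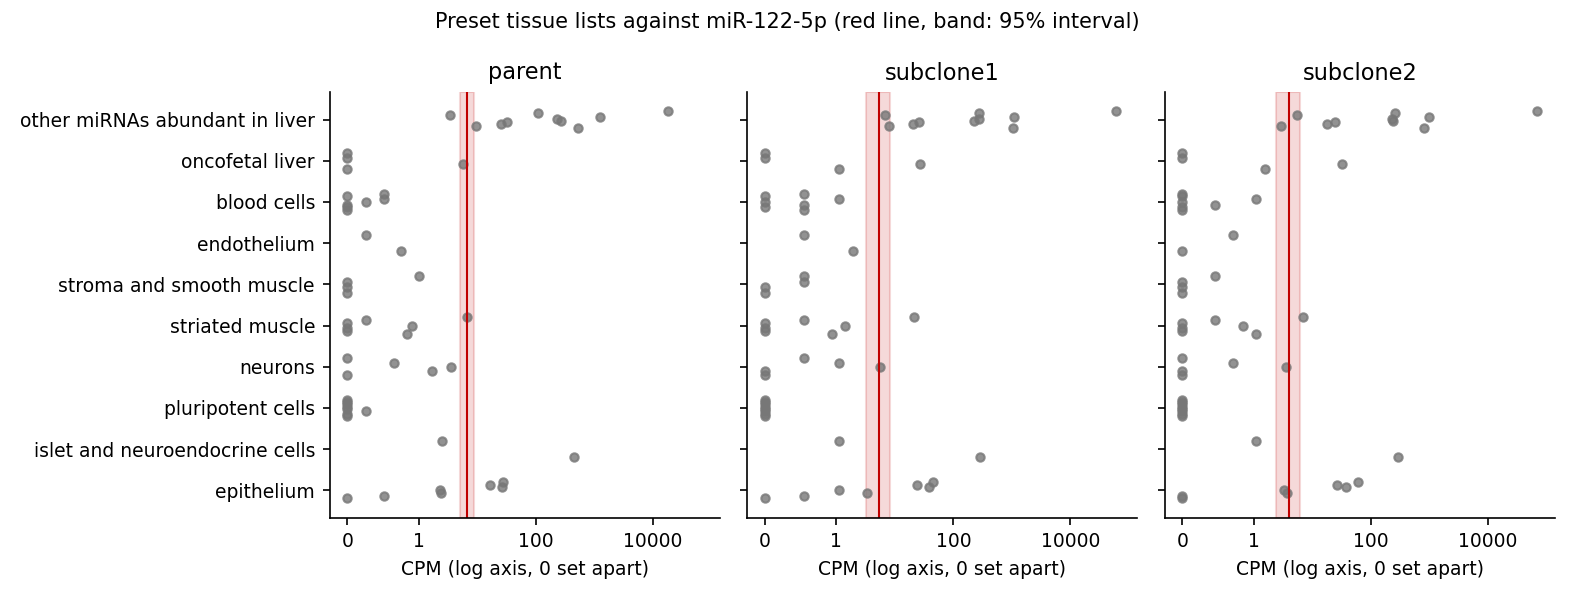
CPM (log axis, with names at 0 set apart on the left) of each miRNA in 10 lists of tissue or cell type miRNAs, 1 panel per library; the red line is hsa-miR-122-5p and the red band its 95% interval. At least 9 of 10 liver-abundant names lie to the right of the line in each panel, while most names of blood, endothelium, stroma, muscle, neurons and pluripotent cells lie to its left. Over all 1921 listed names, 212, 232 and 234 had more counts than hsa-miR-122-5p.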

How the data were processed

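Small RNA libraries were made from cultured cells with Trizol and, per the labels, the Illumina TruSeq Small RNA kit on 1 ug of total RNA. The authors deposited unscaled read counts per mature miRNA name, with 1 library per group. The submitters' processing notes name CASAVA 1.4 and hg19. The aligner, the miRBase release and the treatment of reads shared by several miRNAs are not given in the sources used here. Some pairs of names had identical counts, such as hsa-miR-199a-3p and hsa-miR-199b-3p (31, 6 and 9) and hsa-miR-365a-3p and hsa-miR-365b-3p (618, 285 and 236). If a read was counted under both names, the totals exceed the number of reads, which was not tested. The adapter ligation of such kits favours some ends, so levels of different miRNAs are read counts, not molar amounts.

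Counts were scaled to the library total (CPM). With 1 library per group the edgeR and DESeq2 tests could not be fitted and no p-value is given. Intervals came from scipy 1.17.1, TMM factors from edgeR 4.0.16. The call of a ratio (2-fold with an interval that leaves out 1) was tested on simulated libraries with known ratios. Those libraries held counting error alone, so the run could not check the call against variation between libraries of a strain. Alternatives were other scalings, 5 added counts, summed arms, other minimum levels and folds, and summed lists. Named miRNAs were all members, the antisense neighbour, order neighbours, the 3 most similar patterns, all liver-abundant names and, of each other list, the name with the most counts over all libraries. Others were named where the text sets them beside hsa-miR-122-5p or beside another named miRNA. The members and lists were chosen with earlier results of these data known. Sequences and positions are from RefSeq (GRCh38.p14) and GENCODE release 29 and were not taken from the count tables.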

Additional observations from a re-analysis of the deposited data

How the results depend on the processing

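No paired analysis was possible because there was 1 library per strain, and for that reason none could be left out. Of 57 alternative values, 40 stayed within their limits and 17 moved. Several of the 40 could not move. Summing arms added only counts of 0, a fold threshold does not enter a ratio and a Wilson interval does not enter a level. hsa-miR-122-5p was not called in any contrast under any scaling, pseudocount or fold tried. Its interval depends on neither pseudocount nor fold and held 1 from the start, so only the scalings could have changed this. Its log2 ratio ranged from -0.38 to -0.13 in subclone1, from -0.74 to -0.54 in subclone2 and from -0.43 to -0.20 between the subclones. Taking the total without the 10 most abundant names of any library shrank the total by construction and gave levels of 57.1 CPM (parent), 43.1 CPM (subclone1) and 35.3 CPM (subclone2). The miR-885 arms were at 0 also when summed. A Wilson interval, added after seeing the data, left the levels the same by construction. The number of names called, for subclone1 against the parent, subclone2 against the parent and subclone2 against subclone1, was 25, 20 and 11. It was 67, 75 and 33 with no minimum, 7, 5 and 2 with a minimum of 100 CPM, 56, 50 and 36 at 1.5-fold and 3, 3 and 1 at 4-fold, by the construction of these thresholds. The liver list, with medians over its 10 names of 0.02 in subclone1 and -0.11 in subclone2, gave log2 ratios of 1.59 and 1.77 when summed, since hsa-miR-192-5p carries most of the sum. At this depth, by the limit of 3 counts, a count of 0 limits miR-885 to 0.380, 0.840 and 0.657 CPM.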
